A study of Arabidopsis thaliana with 8 samples.

Results

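The genes described here are 5 kelch F-box genes of Arabidopsis thaliana (AT1G23390, KFB1 or AT1G15670, KFB20 or AT1G80440, KFB39 or AT2G44130, and KFB50 or AT3G59940) and 5 genes of enzymes that such proteins are known to bring to degradation. These are the phenylalanine ammonia-lyase genes PAL1 (AT2G37040), PAL2 (AT3G53260), PAL3 (AT5G04230) and PAL4 (AT3G10340), and the chalcone synthase gene CHS (AT5G13930). All 10 were chosen by identifier, with the result of AT1G23390 already known, and were looked up among the 2958 genes that the authors called when leaf cells received the transcription factor DIV1. A row was found for 2 of the 10, AT1G23390 and PAL1, and 8 were not listed.

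Poly(A) RNA was sequenced from protoplasts, leaf cells stripped of their walls, that had taken up plasmid DNA with polyethylene glycol and then stood overnight. The plants were Col-0 and 4 weeks old, their rosette leaves were used, and both groups went through the same digestion and transfection. There are 4 libraries titled div1 and 4 titled ev, an abbreviation that the labels do not expand. The design text calls the experiment TARGET, an assay that reads genome-wide effects of a transcription factor in transfected cells. The promoter driving the introduced gene, any chemical induction and the number of plants behind each library are not given in the sources used. The p-values therefore reflect the spread between these libraries, which may be technical. The results table does not say which group is the numerator, so direction was read from DIV1 (AT5G58900), whose value in the authors' deposited table was 7.61 on the log2 scale (SE 0.88). Its reads can come from the introduced copy or the chromosomal gene.

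Kelch F-box proteins are the substrate-binding part of SCF ubiquitin ligases, in which SKP1 links the F-box to a cullin. KFB1, KFB20, KFB39 and KFB50 bind phenylalanine ammonia-lyases and lead to their breakdown. Under the name KISS ME DEADLY they also bind type-B response regulators of cytokinin signalling. These targets are given for those genes and not for AT1G23390. Phenylalanine ammonia-lyase makes cinnamate from phenylalanine, the first step towards lignin, sinapate esters and flavonoids. Chalcone synthase is the first enzyme of the flavonoid branch.

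The upstream sequences of both listed genes are shown because these were the members that changed. That of the hydroxylase gene CYP98A3, chosen after the matches were seen, is shown because, among the listed pathway genes, it held matches to several of the short sequences searched. Each is the 300 bases before the annotated gene start, read 5′ to 3′ on the gene's strand from the RefSeq assembly TAIR10.1, and capitals mark matches.
AT1G23390 (chr1:8310917-8311216, minus strand): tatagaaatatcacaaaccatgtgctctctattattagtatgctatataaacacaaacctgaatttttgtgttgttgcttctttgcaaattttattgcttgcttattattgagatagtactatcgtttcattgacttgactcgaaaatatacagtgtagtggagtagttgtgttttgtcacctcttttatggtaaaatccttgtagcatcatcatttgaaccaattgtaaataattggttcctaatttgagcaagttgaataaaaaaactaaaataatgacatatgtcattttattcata
PAL1 (chr2:15560756-15561055, minus strand): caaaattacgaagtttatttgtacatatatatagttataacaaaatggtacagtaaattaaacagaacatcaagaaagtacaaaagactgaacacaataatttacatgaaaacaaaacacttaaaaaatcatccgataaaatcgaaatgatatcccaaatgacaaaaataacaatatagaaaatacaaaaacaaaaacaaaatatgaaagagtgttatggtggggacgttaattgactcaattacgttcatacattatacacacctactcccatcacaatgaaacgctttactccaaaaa
CYP98A3 (chr2:17060653-17060952, minus strand): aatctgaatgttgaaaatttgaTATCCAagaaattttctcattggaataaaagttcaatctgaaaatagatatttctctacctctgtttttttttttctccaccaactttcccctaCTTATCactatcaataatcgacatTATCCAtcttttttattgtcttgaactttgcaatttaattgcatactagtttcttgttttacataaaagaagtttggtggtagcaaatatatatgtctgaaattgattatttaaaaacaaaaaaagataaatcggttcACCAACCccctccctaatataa

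The sequences searched, on both strands, were the I-box GATAAG and the element TATCCA, bound by MYB-related factors in tomato and rice respectively, the elements AC-I (ACCTACC), AC-II (ACCAACC) and AC-III (ACCTAAC) of phenylpropanoid genes, and the G-box CACGTG. Neither AT1G23390 nor PAL1 held any of them in this window. CYP98A3 held the I-box once, between 184 and 179 bases before its start, TATCCA from 278 and again from 160 bases before the start, and AC-II from 22 bases before it. Of the 10 members, 0 held the I-box or an AC element, 1 held TATCCA (KFB20, from 94 bases before its start) and 2 held the G-box (PAL4 and CHS). Over 27438 windows of protein-coding genes, 14.5% held the I-box, 16.2% TATCCA, 1.33% AC-I, 3.18% AC-II, 2.93% AC-III and 7.09% the G-box. Between the 1635 windows of genes called higher and the 1285 of genes called lower, the shares were 21.1% and 10.5% for the I-box, 21.7% and 12.8% for TATCCA, and 9.11% and 8.95% for the G-box. For AC-I they were 0.917% and 1.79%, for AC-II 3.24% and 2.65%, and for AC-III 3.3% and 2.57%. These shares describe the whole table and were not tested. A match is only a run of letters, and these windows hold neither the more distant promoter nor the transcribed part.

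The kelch F-box gene AT1G23390 was strongly higher in the div1 libraries. Its mean normalized count over the 8 libraries was 3258, and its log2 fold change was 2.84 (SE 0.16, adjusted p 1.61e-66) in the authors' deposited table. That is 7.17-fold, with a 95% interval of 5.77 to 8.91 computed from the authors' deposited table. With both groups taken at 4 libraries, these values put the estimated mean at 798 normalized counts in ev and 5718 in div1. The table holds no values by library, so whether the groups overlap is not known. In RNA of whole protoplast samples, more or fewer cells of a type and more or less RNA per cell cannot be told apart.

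Its adjusted p was the 2nd smallest of the table, and its fold change the 97th highest. Among 786 listed genes with a mean within 2-fold of its own, 5 had a larger absolute log2 fold change, and the median absolute value there was 0.60 in the authors' deposited table. Its standard error of 0.16 is near their median of 0.148. AT1G23390 was chosen with its result known, so these ranks only describe it. The genes next to it in rank of adjusted p were ACX1, TPS9, SVL2, NRAMP1 and ZF14. Those closest to it in log2 fold change were AT4G32290, RALFL18, MYB6, GT2 and BBX14, at 2.77 to 2.87 in the authors' deposited table, but with standard errors of 0.25 to 0.98 in the authors' deposited table. The likeness is of 1 comparison only and says nothing of a shared pattern over libraries.

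**Figure D1:**
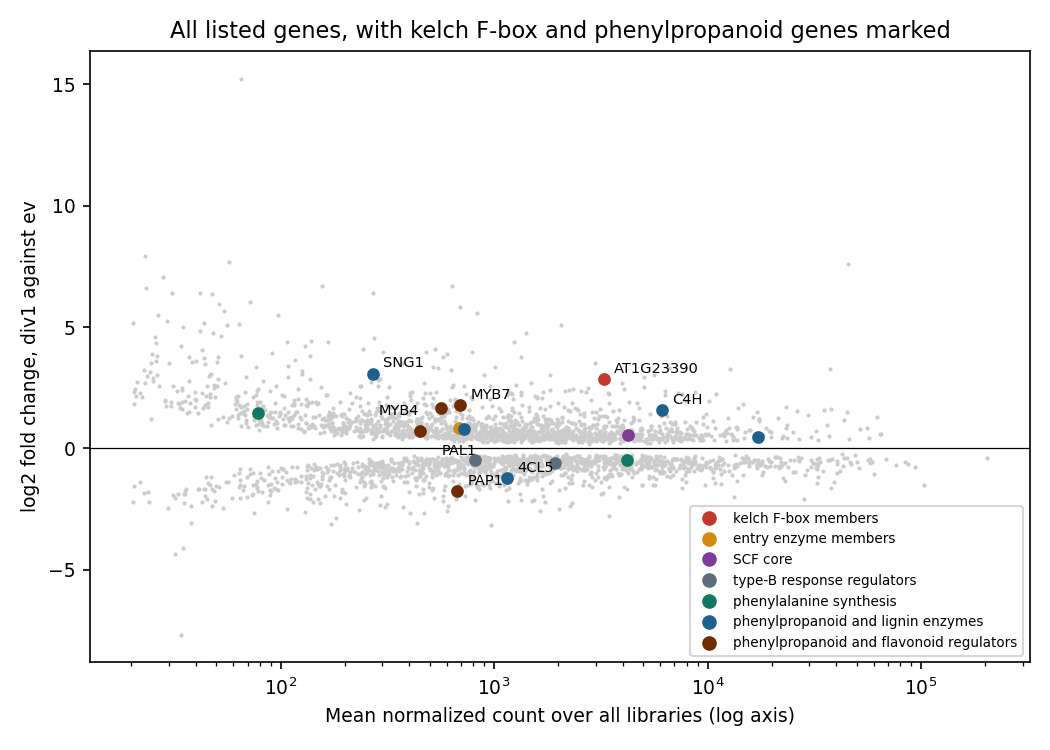
Mean normalized count over all libraries (log axis) against log2 fold change of div1 against ev, 1 point for each of the 2958 listed genes, with genes of the lists coloured by role. AT1G23390, chosen with its result known, lies at 3258 counts and 2.84, above nearly all listed genes of like mean. PAL1, at 682 counts and 0.84, lies within the band of listed genes.

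The other kelch F-box genes of the set, KFB1, KFB20, KFB39 and KFB50, had no row in the authors' deposited table. The table holds only called genes, so each was either untested or did not pass, and a lack of change is not shown. The smallest absolute test statistic listed is 2.64. A tested gene left out thus had an absolute log2 fold change under about 2.64 times its standard error. That is 0.50 at the table's median standard error of 0.189. This median covers called genes only, and the standard errors of genes left out are not known and may be larger. Annotated genes lie across KFB39 and KFB50 on the other strand, and per the labels' protocols the kit was NEBNext Ultra II RNA, which keeps no strand. A difference between AT1G23390 and these relatives was not tested.

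AT1G23390 (chromosome 1, 8308965 to 8310916, minus strand, TAIR10.1) is a gene of 1 exon, as are the 4 relatives, and overlaps no other annotated gene. Its coding sequence of 1185 bases shares 58.7% to 63.6% of aligned bases with theirs. The relatives form closer pairs, KFB1 with KFB20 at 75.1% and KFB39 with KFB50 at 73.2%. Whether reads were shared among them was not tested.

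PAL1 (chromosome 2, 15557367 to 15560755, minus strand, TAIR10.1), a gene of 2 exons, was the only ammonia-lyase gene with a row. Its mean normalized count was 682 and its log2 fold change 0.84 (SE 0.28, adjusted p 0.0202) in the authors' deposited table. That is 1.79-fold higher in div1, with a 95% interval of 1.23 to 2.63 computed from the authors' deposited table, and an estimated mean of 488 in ev and 876 in div1. PAL1 is 2298th of 2958 by adjusted p, and its standard error exceeds the median of 0.186 among the 964 listed genes with a mean within 2-fold of its own.

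PAL2, PAL3, PAL4 and CHS had no row. The coding sequence of PAL1 shares 83.9% of aligned bases with PAL2, 69.7% with PAL3 and 72.7% with PAL4, and how reads from stretches alike in PAL1 and PAL2 were assigned is not stated. CHS overlaps an annotated gene on the opposite strand. Among the 5 kelch F-box genes 1 was called, and among the 5 enzymes 1, both higher, while 16.4% of the 18010 genes tested were called, 9.14% higher and 7.28% lower. Each count of 1 in 5 is close to the background, though how many members were tested is unknown. The members' choice rests on this same comparison.

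SKP1, which links F-box proteins to the cullin, was the only listed gene of 5 SCF core genes, a share close to the 16.4% called over all tested genes. Its log2 fold change was 0.55 (SE 0.13, adjusted p 3.02e-04) at a mean of 4250 normalized counts in the authors' deposited table. Its partner CUL1, the alternative adaptor ASK2 and RBX1 had no row and may not have been tested. Among 6 other kelch F-box genes, ZTL, FKF1, LKP2, AT1G55270, CFK1 and AFR, 0 were listed, and in a list this short that is not read as a difference from the 16.4%.

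Of 142 genes with kelch in their annotation 7 were listed, 4 higher and 3 lower, or 4.93% of them. How many of the 142 were tested is unknown, so this share cannot be set directly against the 16.4%. After AT1G23390, the highest in the authors' deposited table was AT1G67480, at 1.83 on the log2 scale (SE 0.21) and a mean of 468, then AT1G14330, at 1.04 (SE 0.17) and a mean of 6277. HWS (HAWAIIAN SKIRT), an F-box gene of organ separation, stood at 0.88 (SE 0.33, adjusted p 0.0442) at a low mean of 70.3 in the authors' deposited table. In the authors' deposited table the lower genes were AT1G26930, AT1G22040 and AT2G36360, and their log2 fold changes were -1.04 (SE 0.29) for the first, -0.37 (SE 0.11) for the second and -0.49 (SE 0.18) for the last. AT2G36360 overlaps a gene on the opposite strand. The annotation names an F-box for 95 of the 142 genes, of which 4 were listed, 3 higher and 1 lower. It names none for AT1G14330, AT1G26930 and AT2G36360, but also none for KFB1 and KFB20.

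Type-B response regulators are the other known targets of KFB1, KFB20, KFB39 and KFB50. Of 7 examined, 2 were lower, 0 higher and 5 not listed, where 7.28% of all tested genes were called lower and 9.14% higher. With 2 calls, nothing is read from this count about the group. In the authors' deposited table ARR10, at a mean of 1931, had a fold change of -0.60 on the log2 scale (SE 0.12, adjusted p 5.18e-06). ARR2, at a mean of 812 in the authors' deposited table, had one of -0.49 (SE 0.12, adjusted p 7.83e-04). ARR10 thus stood at 0.658 of its ev level and ARR2 at 0.710. ARR1 and ARR12 had no row.

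Downstream of the ammonia-lyases, 5 of 20 phenylpropanoid and lignin enzymes were listed, 4 higher and 1 lower. Over all tested genes 16.4% were called, 9.14% higher and 7.28% lower. How many of the 20 were tested is unknown, so nothing is read from this count about the list. C4H, the cytochrome P450 that hydroxylates cinnamate in the second step, rose by 1.57 on the log2 scale (SE 0.15, adjusted p 5.64e-23) at a mean of 6116 in the authors' deposited table. That is 2.98-fold, with a 95% interval of 2.43 to 3.66 computed from the authors' deposited table, from an estimated 3075 normalized counts in ev to 9158 in div1. Per kilobase of transcript, the estimated ev level of C4H was 8.87 times that of PAL1.

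SNG1, which makes sinapoylmalate, a sunscreen compound of the leaf, had the largest fold change of the 5. It lies in a run of related serine carboxypeptidase-like genes, and whether reads were shared among them was not tested. Its log2 fold change was 3.08 (SE 0.32, adjusted p 1.26e-19) at a mean of 270 normalized counts in the authors' deposited table. The estimated means were 57.0 in ev and 482 in div1, an 8.47-fold difference with a 95% interval of 5.49 to 13.1 computed from the authors' deposited table. CYP98A3, which hydroxylates coumaroyl shikimate on the way to lignin, stood at 0.79 on the log2 scale (SE 0.23) in the authors' deposited table and overlaps genes on the opposite strand. CAD5, which reduces cinnamaldehydes to lignin alcohols, had the highest mean per kilobase of the 5, at 10692 normalized counts, and stood at 0.46 on the log2 scale (SE 0.16, adjusted p 0.0276) in the authors' deposited table.

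The lower enzyme was 4CL5, a ligase that joins hydroxycinnamates to coenzyme A, at -1.21 on the log2 scale (SE 0.18, adjusted p 1.07e-09) and a mean of 1151 in the authors' deposited table. 4CL5 overlaps a gene on the opposite strand, whose part in the count was not tested. The other ligases, 4CL1, 4CL2 and 4CL3, had no row, nor had HCT, CCR1 or the methyltransferase genes OMT1 and CCoAOMT1. CCOAMT (AT1G67980), a further methyltransferase gene outside the list of these enzymes, was called higher. Its log2 fold change was 1.92 (SE 0.30, adjusted p 7.35e-09) at a mean of 4286 in the authors' deposited table. CCOAMT was added after the results were seen and is not in the counts of these enzymes.

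**Figure D2:**
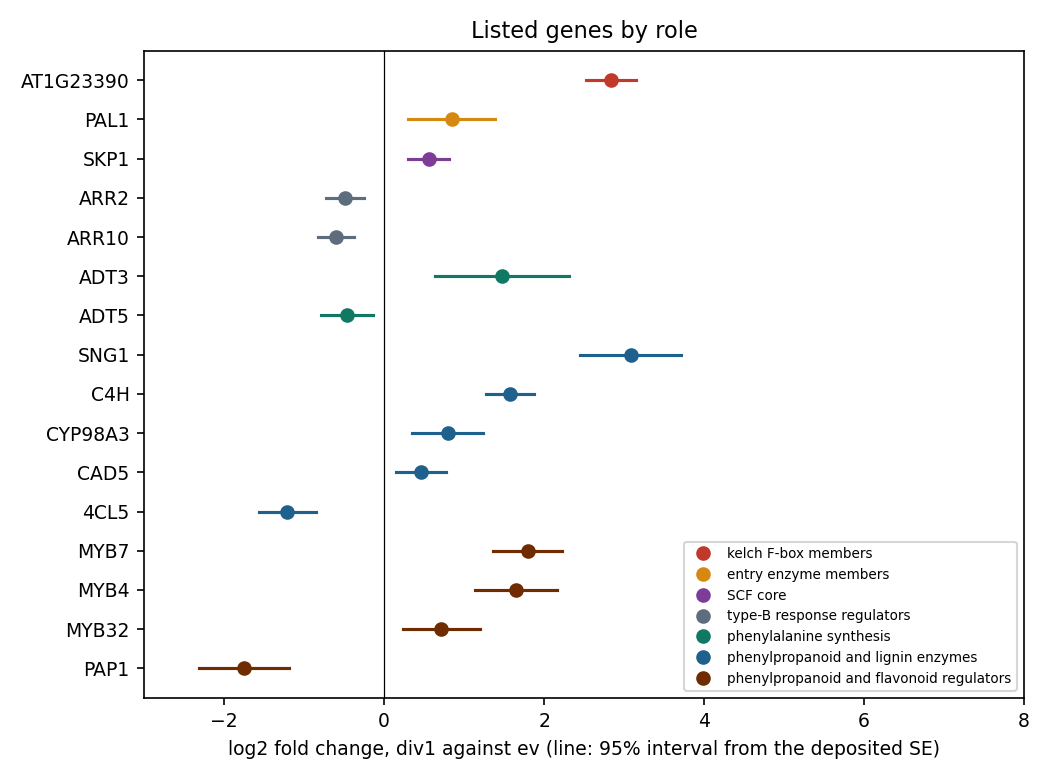
Log2 fold change of div1 against ev for the 16 listed genes of the lists, ordered by role, with lines for 95% intervals from the deposited standard errors. AT1G23390 and SNG1 lie farthest to the right at 2.84 and 3.08, MYB7, MYB4 and C4H follow at 1.79, 1.65 and 1.57, and ARR2, ARR10, ADT5, 4CL5 and PAP1 lie left of 0.

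Of 16 flavonoid and anthocyanin enzymes beyond CHS, 0 were listed in the authors' deposited table, which gives no values or unadjusted p for genes that were not called. Among them are CHI, F3H, FLS1, DFR and LDOX, which follow CHS in the branch. How many of them were tested in these leaf cells is unknown. The 0 of 16 therefore cannot be set directly against the 16.4% called over all tested genes.

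Of 24 regulators of these pathways, 4 were listed, 3 higher and 1 lower. That is 16.7% of the list, beside 16.4% called over all tested genes. How many of the 24 were tested is unknown, and the count is not read as a result about the list. The higher ones, MYB4, MYB7 and MYB32, are closely related R2R3 MYB genes, and MYB4 is known to repress C4H and sinapate ester synthesis. In the authors' deposited table MYB4, at a mean of 566, was higher by 1.65 on the log2 scale (SE 0.26, adjusted p 1.19e-08). MYB32 stood at 0.71 (SE 0.25, adjusted p 0.0276) in the authors' deposited table. MYB7 was higher at 1.79 (SE 0.22) in the authors' deposited table. MYB3, a further MYB gene outside the list of 24, was called higher too. Its log2 fold change was 1.40 (SE 0.24, adjusted p 1.87e-07) at a mean of 199 in the authors' deposited table. MYB3 was added after the results were seen and is not in the count of 4. MYB4 and C4H were thus both higher in this comparison.

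PAP1, an activator of anthocyanin synthesis, was lower, with estimated means of 1034 normalized counts in ev and 306 in div1. Its log2 fold change was -1.76 (SE 0.29) in the authors' deposited table. The flavonol regulators MYB11, MYB12 and MYB111, the partner TT8 and the nitrogen-responsive repressors LBD37, LBD38 and LBD39 had no row.

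Phenylalanine, the substrate of the ammonia-lyases, is made by arogenate dehydratases. Of 10 genes of phenylalanine synthesis 2 were listed, in opposite directions, a share close to the 16.4% called over all tested genes. How many of the 10 were tested is unknown. In the authors' deposited table ADT3, at a low mean of 78.5, was higher by 1.47 on the log2 scale (SE 0.43, adjusted p 0.00568). ADT5, at a mean of 4214 in the authors' deposited table, was at -0.46 on the same scale (SE 0.17, adjusted p 0.0364). Per kilobase, the estimated ev level of ADT5 was 2234 and that of ADT3 was 24.2, so the higher gene was the less abundant transcript.

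**Figure D3:**
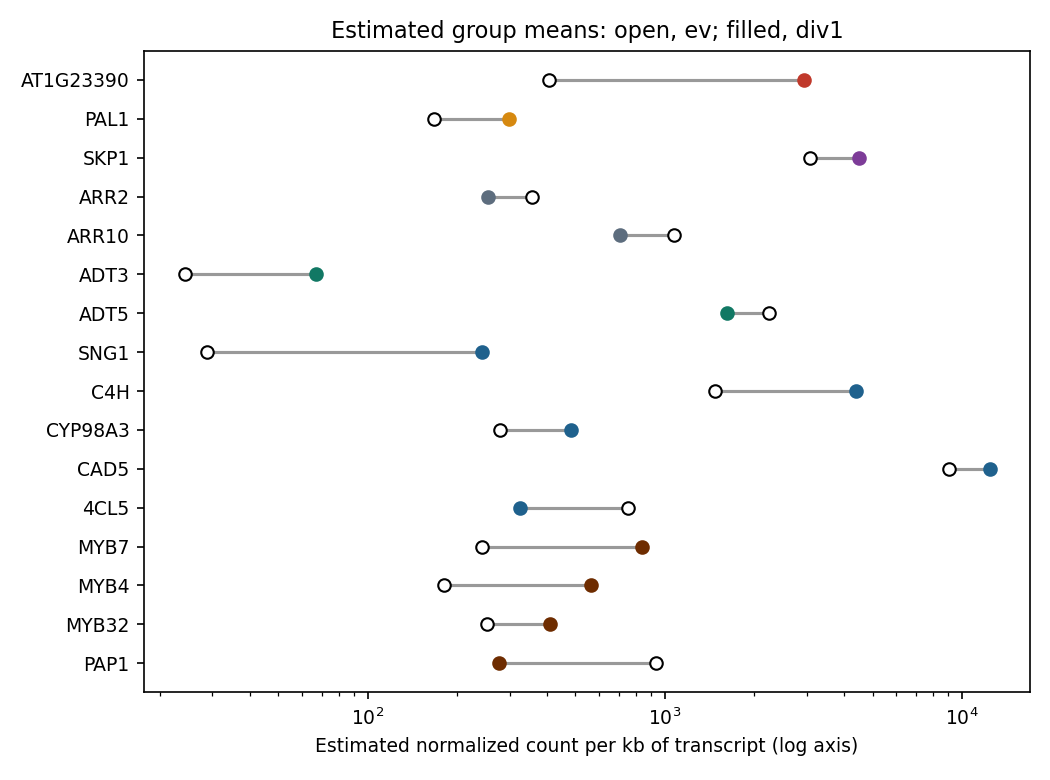
Estimated mean normalized count per kilobase of transcript (log axis) in ev (open) and div1 (filled) for the 16 listed genes, computed from the deposited overall mean and fold change with equal group sizes and shown with no error. AT1G23390 moves from 409 to 2929 and PAL1 from 167 to 299.

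Over all listed genes the median log2 fold change was 0.41, and the median absolute one 0.78. Markers of guard cells, epidermis and vascular tissue gave 0 listed of 9 genes, where 16.4% of all tested genes were called. These markers may not have been tested, so a change in the share of such cells is not addressed by this count.

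**Figure D4:**
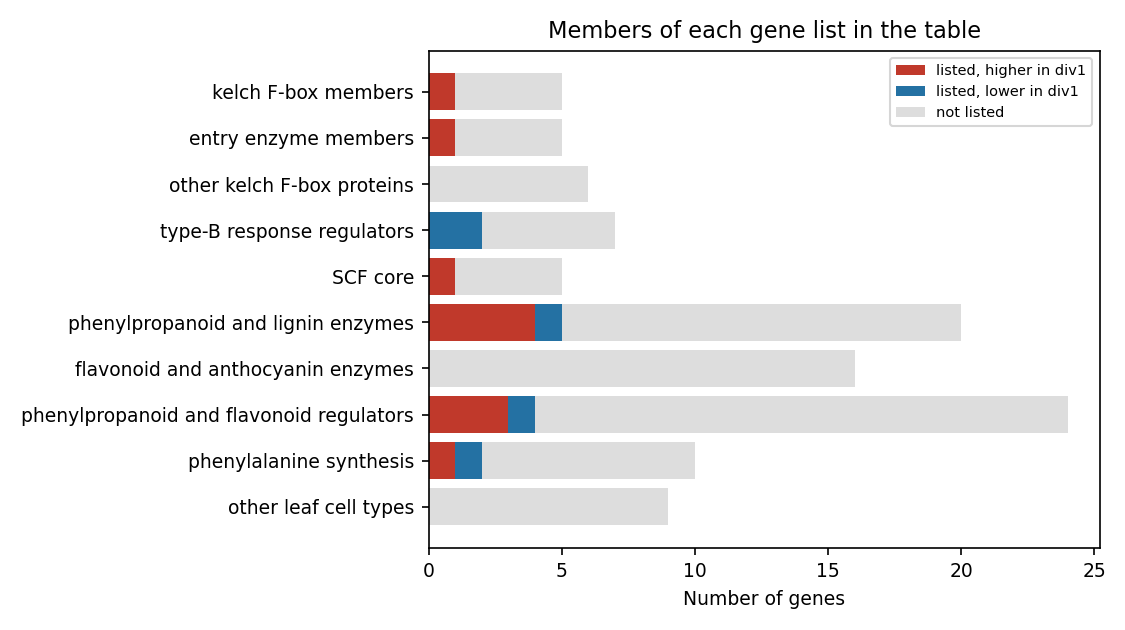
Number of genes in each list (bars from 0) that were listed higher in div1, listed lower, or not listed. The kelch F-box and entry enzyme sets have 1 listed gene of 5 each, and the flavonoid enzymes 0 of 16.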

How the data were processed

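Poly(A) RNA libraries, 4 titled div1 and 4 titled ev, were compared by the authors with fastp 0.21.0, HISAT2, featureCounts 2.0.1 and DESeq2 on TAIR10, per the submitters' processing notes. Their settings are not stated in the sources used. The deposited table gives, per the file headers, a mean normalized count (a signal averaged by the authors over all libraries), a log2 fold change with its standard error, a test score, and the p-value before and after adjustment. Values per library were not used, so the depth of each library is unknown, and only the deposited standard errors show the precision. No test of samples was run. The deposited score is the ratio of fold change to standard error to within 9.06e-14.

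The number of genes tested, 18010, was recovered as the largest adjusted p times rank over p, a step tested on simulated data. Intervals are the fold change ± the normal 95% quantile times the standard error. The mean of each group was derived from the deposited overall mean and fold change, with equal group sizes. Exons, coding sequences and upstream sequences came from the RefSeq annotation of TAIR10.1, to which all 107 list genes matched by identifier. Coding sequences were aligned end to end with free end gaps in Biopython 1.88, and identity counts aligned bases only. Tables were read with pandas 2.3.3 and numpy 2.4.6 in Python 3.11.15, quantiles came from scipy 1.17.1, and plots from matplotlib 3.10.9.

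Members and lists were chosen with earlier results of these data known. Named are all members, each list gene with a row, kelch-annotated genes with a row up to 10 by adjusted p, the 5 nearest genes to AT1G23390 by rank of adjusted p and by log2 fold change, and DIV1. Genes without a row are named after the lists. MYB3 and CCOAMT, which are outside the lists, were named after the results were seen. Alternatives were an adjusted p under 0.01, an absolute log2 fold change of at least 1, a mean of at least 50 and a Bonferroni adjustment.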

Additional observations from a re-analysis of the deposited data

How the results depend on the processing

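The call of AT1G23390 held under each of the 4 alternatives, and a mean of at least 50 changed no count. AT1G23390 was chosen with its result known, so its passing was settled beforehand and adds no support. PAL1, at a log2 fold change of 0.84, did not pass an adjusted p under 0.01, a fold change of at least 1 on the log2 scale or the Bonferroni adjustment, so 0 entry enzymes were called under these. An adjusted p under 0.01 left 1 phenylalanine synthesis gene, 4 of 5 phenylpropanoid and lignin enzymes and 5 of 7 kelch-annotated genes. Of the 4 regulators, 3 passed under each of the 3 stricter thresholds. A log2 fold change of at least 1 left 0 type-B response regulators, 0 SCF core genes, 3 phenylpropanoid and lignin enzymes, 1 phenylalanine synthesis gene and 4 kelch-annotated genes. The Bonferroni adjustment left 1 type-B response regulator, 0 SCF core genes, 3 phenylpropanoid and lignin enzymes, 0 phenylalanine synthesis genes and 3 kelch-annotated genes, all of them higher, so that 0 of the 3 lower ones passed. These losses follow from the stricter thresholds. No paired analysis was possible because the table holds no values per library, and leaving out a replicate was not run for the same reason. Depth per library is unknown, and genes without a row cannot be told apart as untested or not passing.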
